A study of Rattus norvegicus with 8 samples.

Results

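Transcripts of the protein genes of the rat mitochondrial genome were described in bone around titanium implants. The genes were chosen by name, from a list of 10 symbols that was matched to the symbols of the deposited gene table without regard to letter case. Of these, 6 had a row (Mt-nd2, Mt-nd4, Mt-nd5, Mt-nd6, Mt-cyb and Mt-co2), among 19120 gene loci in all. The other 4 names (Mt-nd1, Mt-co1, Mt-co3 and Mt-atp6) were not analysed here. All 6 genes had higher mean values in hyperlipidemic than in normal rats, but no gene passed the test over all loci, and relative to its mean the FPKM of each of the 6 scattered more between the normal libraries than between the hyperlipidemic ones, least so for Mt-nd5.

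The bone came from male Wistar rats, 12 to 13 weeks old, that all carried titanium root-form implants in both femoral shafts. The hyperlipidemic group (4 libraries) had been on a high-fat diet for 8 weeks and the normal group (4 libraries) on a normal diet for the same time. Tissue was taken 10 days after implantation, within 1 mm of the implant. Hyperlipidemia was thus brought about by diet, the labels give no blood lipid values, and they do not say whether a library holds 1 animal or several. The p-values below therefore measure the spread between these 8 libraries only, which may be technical.

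The mitochondrial genome is a small circle, present in many copies per cell, that encodes core subunits of the respiratory chain and of ATP synthase together with the rRNAs and tRNAs needed to translate them. Both strands are transcribed as long precursors, without introns, and enzymes cut the messenger, ribosomal and transfer RNAs out of these. Levels of single mitochondrial messengers thus depend on how fast each is cut and degraded as well as on transcription. Every other subunit of the chain is encoded in the nucleus, and complexes I, III, IV and V are assembled from the products of both genomes.

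On the coordinates of the deposited table (chromosome MT, build Rnor_6.0 per the submitters' processing notes) the genes lie in the order Mt-nd2 (3904 to 4942), Mt-co2 (7006 to 7689), Mt-nd4 (10160 to 11537), Mt-nd5 (11736 to 13565), Mt-nd6 (13543 to 14061) and Mt-cyb (14136 to 15278). Mt-nd6 is known as the protein gene read from the strand opposite to the others, and its listed span shares 23 bases with that of Mt-nd5. The libraries were made to keep the strand, but neither the strand setting of the counting nor the handling of reads that also match nuclear copies of mitochondrial sequence is stated. How reads of those bases or copies were divided is therefore uncertain.

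Values are FPKM, which the authors scaled to locus length and library size. That scaling is meant to let levels be set beside each other between genes and between libraries. Between genes it rests on the length taken for each locus, and between libraries it did not make the totals equal. The summed FPKM of all loci ranged from 496578 to 584474 in hyperlipidemic and from 510668 to 906019 in normal libraries, and loci of up to 1000 bp held 59.7% to 70.4% of it in hyperlipidemic and 64.5% to 82.3% in normal libraries. Each gene was therefore also taken as a share of the summed FPKM of its library, multiplied by 1000000 and written as ppm. In normal replicate 1, 31 loci were listed at 0 that exceeded 10 FPKM in each of the other 7 libraries, and 1 locus was so listed in normal replicate 4, which is Mt-cyb. The depth behind a value, and with it the counting error, is unknown.

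Of the subunit genes of complex I, which takes electrons from NADH and pumps protons, Mt-nd2, Mt-nd4 and Mt-nd6 were uneven between normal libraries and Mt-nd5 was not. Mt-nd2, one of its membrane subunits, measured 1115, 1084, 1274 and 1134 FPKM in hyperlipidemic replicates 1 to 4, against 114, 1008, 597 and 929 FPKM in normal replicates 1 to 4. The groups did not overlap, with normal replicate 1 far below and normal replicate 2 close to the hyperlipidemic range. Mt-nd4, a proton-pumping membrane subunit, measured 644, 529, 716 and 600.2 FPKM in hyperlipidemic replicates 1 to 4, against 13.8, 458, 365 and 302 FPKM in normal replicates 1 to 4. Again every hyperlipidemic library lay above every normal one, and normal replicate 1 was the lowest by a wide margin. Mt-nd4 averaged 622 ± 78.4 FPKM in hyperlipidemic and 285 ± 192 FPKM in normal libraries (SD, n = 4 each). Mt-nd2 averaged 1152 ± 84.0 FPKM in hyperlipidemic and 662 ± 406 FPKM in normal libraries.

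Mt-nd5, another proton-pumping subunit and the longest of the genes at 1830 bp, was even in both groups. It measured 698, 547, 681 and 574 FPKM in hyperlipidemic replicates 1 to 4, against 549, 558, 404 and 484 FPKM in normal replicates 1 to 4. The groups overlapped, and normal replicate 1, low for Mt-nd2 and Mt-nd4, was among the 2 highest normal libraries here. Mt-nd6 measured 145, 95.3, 149 and 106 FPKM in hyperlipidemic replicates 1 to 4, against 0.817, 52.6, 169 and 54.2 FPKM in normal replicates 1 to 4. Normal replicate 3 held the highest Mt-nd6 value of all 8 libraries and normal replicate 1 the lowest, so the groups overlapped.

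Mt-cyb encodes cytochrome b, the mitochondrially encoded subunit of complex III, which passes electrons to cytochrome c. It measured 1782, 1396, 1637 and 1466 FPKM in hyperlipidemic replicates 1 to 4, against 1581, 1705 and 917 FPKM in normal replicates 1 to 3, and was listed at 0 in normal replicate 4. Since the other 5 genes of the same genome measured between 54.2 and 2753 FPKM in that library, a listed 0 may be a failed estimate and is not read as absence here. Among the libraries with a value, 2 normal ones lay inside the hyperlipidemic range and 1 below it. Mt-co2, the complex IV subunit that receives electrons from cytochrome c, was the most abundant of the genes in every library. It measured 3133, 2440.3, 3326 and 2754 FPKM in hyperlipidemic replicates 1 to 4, against 1687, 2496, 1769.9 and 2753 FPKM in normal replicates 1 to 4. Normal replicates 2 and 4 reached the hyperlipidemic range, and normal replicates 1 and 3 lay below it.

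**Figure D1:**
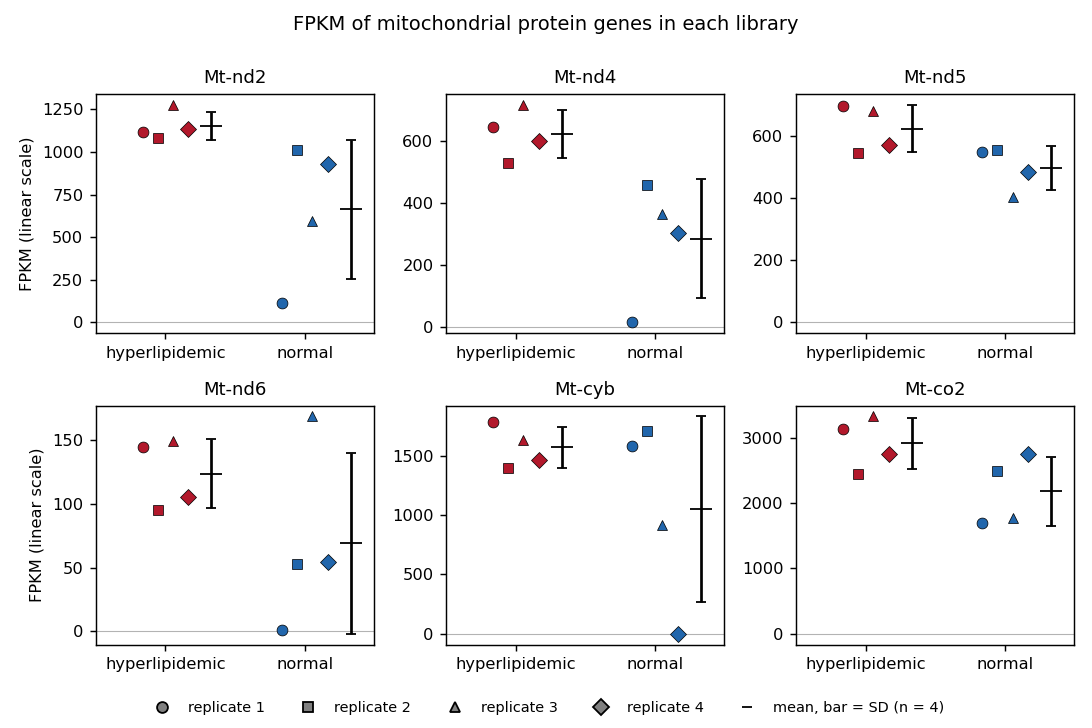
FPKM of each of the 6 genes (y axis, linear, a separate range per panel) in hyperlipidemic (red) and normal (blue) libraries, with symbols for the replicate number and the mean with its SD (n = 4). Mt-nd2 and Mt-nd4 do not overlap between groups, normal replicate 1 is lowest for Mt-nd2, Mt-nd4 and Mt-nd6, and normal replicate 4 is at 0 for Mt-cyb.

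Scaling to the summed FPKM widened the gap between the groups, as the normal totals averaged higher. Mt-co2 then made up 5361, 4359, 6697 and 5004 ppm in hyperlipidemic replicates 1 to 4, against 3303, 2911, 2496 and 3038 ppm in normal replicates 1 to 4, without overlap. Mt-nd2 made up 1908, 1937, 2566 and 2060.5 ppm in hyperlipidemic replicates 1 to 4, against 224, 1176, 842 and 1025 ppm in normal replicates 1 to 4. The share of Mt-nd4 was 1102, 945, 1442 and 1091 ppm in hyperlipidemic replicates 1 to 4, against 27.0, 535, 515 and 333 ppm in normal replicates 1 to 4. The groups still overlapped as shares for the other 3 genes. Mt-nd5 averaged 1147 ± 176 ppm in hyperlipidemic and 707 ± 250.1 ppm in normal libraries, and Mt-nd6 averaged 228 ± 58.7 ppm in hyperlipidemic and 90.2 ± 102 ppm in normal libraries. Mt-cyb made up 3049, 2493, 3297 and 2664 ppm in hyperlipidemic replicates 1 to 4, against 3096, 1988 and 1294 ppm in normal replicates 1 to 3 and the listed 0 in normal replicate 4. Groups thus did not overlap for 2 of the 6 genes as FPKM, where 4.19% of all loci lay wholly higher in the hyperlipidemic group, and for 3 of the 6 as shares, where 16.0% of all loci did.

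**Figure D2:**
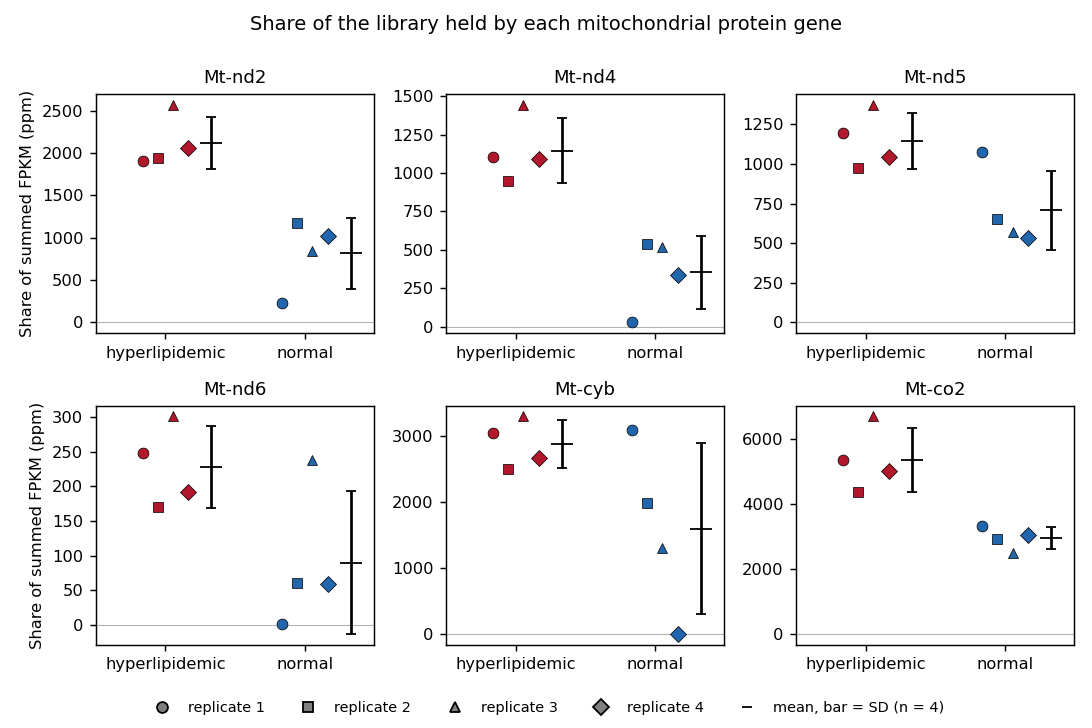
Share of the summed gene FPKM of the library in ppm (y axis, linear, a separate range per panel) for each gene in hyperlipidemic (red) and normal (blue) libraries, with the mean and its SD (n = 4). Mt-nd2, Mt-nd4 and Mt-co2 are separated between groups on this scale, and Mt-co2 lies between 4359 and 6697 ppm in hyperlipidemic and between 2496 and 3303 ppm in normal libraries.

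Together the 6 genes held 1.29%, 1.09%, 1.57% and 1.21% of the summed gene FPKM in hyperlipidemic replicates 1 to 4, against 0.773%, 0.732%, 0.595% and 0.499% in normal replicates 1 to 4. The means were 1.29% ± 0.204 in hyperlipidemic and 0.650% ± 0.126 in normal libraries (SD, n = 4 each), a ratio of 1.98, without overlap. Without Mt-cyb, listed at 0 in 1 library, the other 5 genes held 0.981%, 0.839%, 1.24% and 0.939% in hyperlipidemic replicates 1 to 4, against 0.463%, 0.533%, 0.466% and 0.499% in normal replicates 1 to 4, again without overlap. As a plain sum of all 6 the difference was smaller, at 7007 ± 783 FPKM in hyperlipidemic and 4742 ± 1051 FPKM in normal libraries, a ratio of 1.48 with overlap. Set against loci longer than 1000 bp and the genes themselves, which leaves out the short loci that dominate the totals, the genes held 3.58% ± 0.207 in hyperlipidemic and 2.72% ± 0.512 in normal libraries, a ratio of 1.32 with overlap. No test is given for these sums, since they are scores over genes picked for description. In bulk tissue, fewer cells of a type and less RNA per cell cannot be told apart, nor can fewer mitochondria and less RNA per mitochondrion.

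The comparison asked whether the 6 genes differed between hyperlipidemic and normal rats, and was read from limma fits over all loci at a Benjamini-Hochberg adjusted p under 0.05. On the FPKM scale 0 of the 6 passed, where 1.39% of 13742 loci were called (20 higher and 171 lower). Taken as shares, 0 of the 6 passed as well, where 1.96% of 14533 loci were called (143 higher and 142 lower). At an unadjusted p under 0.05, limma counted 0 of the 6 genes on the FPKM scale, beside 13.0% of all loci, and 5 of the 6 as shares, beside 26.5% of all loci. All 6 log2 changes were above 0 on both scales, as were those of 65.0% of all loci on the FPKM scale and 81.2% as shares. Their median log2 change was 1.55 on the FPKM scale, beside 0.18 for all loci, and 1.97 as shares, beside 0.53 for all loci. The difference in the medians of all loci shows how far the scale itself moves a change.

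The smallest changes were also the most precise. The log2 change of Mt-nd5 was 0.33 ± 0.22 (SE) on the FPKM scale (limma adjusted p = 0.524) and 0.74 ± 0.29 as a share (adjusted p = 0.143). That of Mt-co2 was 0.44 ± 0.30 on the FPKM scale (limma adjusted p = 0.528) and 0.86 ± 0.30 as a share (adjusted p = 0.114). These share values stand 0.22 and 0.33 above the median of all loci. With loci over 1000 bp as denominator, where the median of all loci was 0.11, they were 0.16 for Mt-nd5 (limma adjusted p = 0.753) and 0.28 for Mt-co2 (adjusted p = 0.761). Mt-nd2 had the smallest adjusted p of the genes as a share, with a log2 change of 1.60 ± 0.47 (limma adjusted p = 0.0868), and 1.19 ± 0.59 on the FPKM scale (adjusted p = 0.420). For Mt-nd4 the log2 change was 1.90 ± 0.91 on the FPKM scale (limma adjusted p = 0.408) and 2.33 ± 0.78 as a share (adjusted p = 0.106). Mt-nd6 gave 1.99 ± 1.098 on the FPKM scale (limma adjusted p = 0.451) and 2.51 ± 1.04 as a share (adjusted p = 0.158). With loci over 1000 bp as denominator the share changes were 1.03 for Mt-nd2, 1.76 for Mt-nd4 and 2.04 for Mt-nd6 (limma adjusted p = 0.600, 0.565 and 0.612).

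The largest log2 change, that of Mt-cyb, rested on 1 library. It was 2.81 ± 2.00 on the FPKM scale (limma adjusted p = 0.548) and 3.26 ± 2.02 as a share (adjusted p = 0.309). With the value of normal replicate 4 set to missing, so that the fit used 3 normal values, it was 0.21 on the FPKM scale (limma adjusted p = 0.792) and 0.52 as a share (adjusted p = 0.370). Normal replicate 1 likewise set the size of the change of the other uneven genes. Without it the log2 change of Mt-nd2 was 0.48, that of Mt-nd4 0.74 and that of Mt-nd6 0.62 on the FPKM scale. As shares without it, 4 of the 6 genes passed, where 4.95% of all loci were called as higher: Mt-nd2 at 1.06 (limma adjusted p = 0.0289), Mt-nd4 at 1.32 (0.0276), Mt-nd5 at 0.96 (0.0276) and Mt-co2 at 0.91 (0.0490). With normal replicates 1 and 4 both left out, an alternative chosen after seeing the data, 0 of the 6 passed, where 1.47% of all loci did, and the log2 changes as shares lay between 0.83 for Mt-cyb and 1.11 for Mt-nd4. With array quality weights, which lower the influence of libraries that stand apart, 5 of the 6 passed as shares, all but Mt-cyb, but so did 31.6% of all loci as higher.

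**Figure D3:**
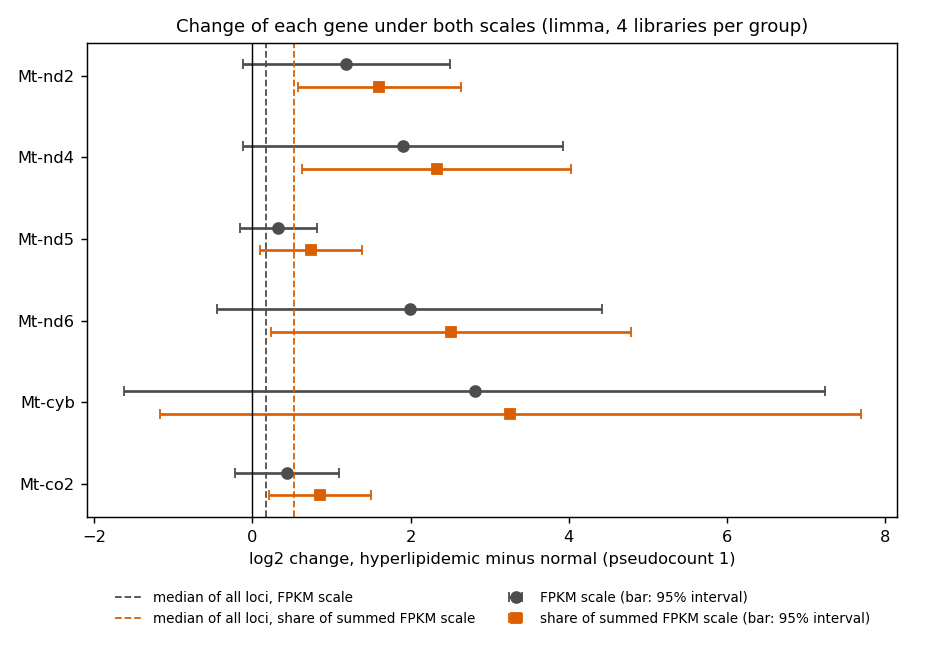
Log2 change of each gene (x axis, hyperlipidemic minus normal, pseudocount of 1) on the FPKM scale (grey circles) and as a share of the summed FPKM (orange squares), with limma 95% intervals from 4 libraries per group and dashed lines for the median of all loci on each scale. Changes run from 0.33 for Mt-nd5 to 2.81 for Mt-cyb on the FPKM scale, where the intervals of all 6 genes include 0. As shares the interval of Mt-cyb alone includes 0. These intervals are not adjusted for the number of loci, and 0 of the 6 genes passed on either scale.

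Fold changes of hyperlipidemic over normal in the authors' deposited table, whose formula is not stated, ran from 1.24 for Mt-nd5 to 2.83 for Mt-cyb. The same authors' deposited table gives q-values between 0.841 and 0.925 for the 6 genes, and marks Mt-nd4, Mt-nd6 and Mt-cyb as up and the other 3 as not changed.

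The order of levels was steady in the hyperlipidemic libraries. In all 4 of them Mt-co2 was followed by Mt-cyb and then Mt-nd2, with ranges that did not overlap between neighbours. Mt-nd5 and Mt-nd4 came next at means of 625 and 622 FPKM and could not be ordered, since each was the higher in 2 of the 4 libraries. Mt-nd6 was lowest, 5.03-fold under Mt-nd4 between means. In the normal group every pair of neighbours had overlapping ranges, and the order broke in replicate 1, where Mt-nd5 exceeded Mt-nd2, and in replicate 4, where Mt-cyb was listed at 0. The highest of the 6 genes exceeded the lowest 21.6-fold to 26.1-fold in the hyperlipidemic libraries, against 2065-fold in normal replicate 1, 47.5-fold in replicate 2 and 10.5-fold in replicate 3.

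As a percentage of the 6 genes' summed FPKM, Mt-co2 made up 41.7%, 40.1%, 42.7% and 41.5% in hyperlipidemic replicates 1 to 4, against 42.7%, 39.8%, 41.9% and 60.9% in normal replicates 1 to 4. Mt-cyb made up 23.7%, 22.9%, 21.0% and 22.1% in hyperlipidemic replicates 1 to 4, against 40.1%, 27.2%, 21.7% and 0.0% in normal replicates 1 to 4. The percentages thus stayed within a few points of each other among the hyperlipidemic libraries and diverged in normal replicates 1 and 4. Mt-nd4 made up 8.57% to 9.20% in hyperlipidemic libraries, against 0.349% in normal replicate 1 and 6.68% to 8.66% in the other 3. These percentages count the listed 0 of Mt-cyb. Out of the other 5 genes alone, Mt-co2 made up 54.6%, 52.0%, 54.1% and 53.3% in hyperlipidemic replicates 1 to 4, against 71.3%, 54.6%, 53.5% and 60.9% in normal replicates 1 to 4, and Mt-nd4 made up 11.2% to 11.6% in hyperlipidemic libraries, against 0.582% to 11.1% in normal libraries, without overlap. Coefficients of variation of the FPKM, which state the spread within a group, were between 7.29% (Mt-nd2) and 22.1% (Mt-nd6) in the hyperlipidemic group and between 14.3% (Mt-nd5) and 103% (Mt-nd6) in the normal group, and were larger in the normal group for each of the 6 genes. As shares this did not hold for Mt-co2, at 18.4% in the hyperlipidemic and 11.5% in the normal group. Whether the groups differ in spread was not tested.

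**Figure D4:**
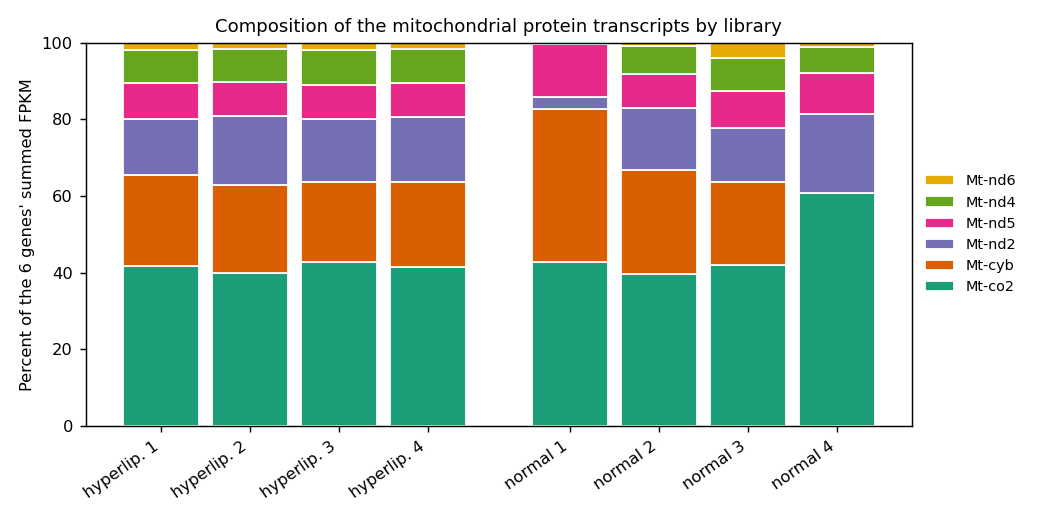
Percentage of the summed FPKM of the 6 genes taken by each gene (stacked bars, 0 to 100) in each hyperlipidemic (left) and normal (right) library. The 4 hyperlipidemic bars are alike, with Mt-co2 between 40.1% and 42.7%, whereas normal replicate 1 has nearly no Mt-nd4 and Mt-nd6 and normal replicate 4 no Mt-cyb.

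The within-group spread of the genes split them into an even and an uneven set. On the log2 FPKM scale the SD within groups was 0.20 for Mt-nd5 and 0.29 for Mt-co2, at percentiles 3.47 and 14.5 of all loci tested. It was 1.03 for Mt-nd2, 1.66 for Mt-nd4, 2.02 for Mt-nd6 and 3.69 for Mt-cyb, at percentiles 91.8, 98.8, 99.6 and 99.99. For Mt-cyb this SD counts the listed 0 of normal replicate 4, and the values of the other libraries lay between 917 and 1782 FPKM. Mt-nd2, Mt-nd4 and Mt-nd6 varied together across the 8 libraries, with Pearson's r of the log2 shares of 0.978 for Mt-nd2 with Mt-nd4, 0.966 for Mt-nd4 with Mt-nd6 and 0.904 for Mt-nd2 with Mt-nd6. After the group means were removed these r values were 0.969, 0.954 and 0.868. Mt-nd5 lies between Mt-nd4 and Mt-nd6 on the genome, and its r over the 8 libraries was 0.16 with Mt-nd4 and 0.05 with Mt-nd6. Only after removal of group means was it negative, at -0.78 with Mt-nd4 and -0.77 with Mt-nd6. The points of these correlations share the library and its scaling, and normal replicate 1 lies far from the rest, so they are given as a description.

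Mt-nd6, read from the other strand, was also set against the 4 genes above 0 in all libraries that lie on the opposite strand (Mt-nd2, Mt-nd4, Mt-nd5 and Mt-co2), as the ratio to their mean log2 level, which rescaling a whole library cannot move. The log2 ratio was -2.95, -3.29, -3.00 and -3.27 in hyperlipidemic replicates 1 to 4, against -7.90, -4.09, -1.90 and -3.85 in normal replicates 1 to 4. The hyperlipidemic values lay within the range of the normal ones. The means were -3.13 ± 0.18 in hyperlipidemic and -4.44 ± 2.51 in normal libraries (SD, n = 4 each), a difference of 1.31 (exact permutation test over 70 assignments, two-sided, p = 0.457). Without normal replicate 1 the difference was 0.15 (exact permutation p = 0.914), and without normal replicate 3 it was 2.15 (exact permutation p = 0.0286, the smallest that 7 libraries allow). With normal replicates 1 and 4 both left out its sign turned, to -0.14 (exact permutation p = 0.733).

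Of the other protein genes of the mitochondrial genome, Mt-nd3, a small complex I subunit at 9451 to 9798, had a row. It measured 660.2, 572, 761 and 561 FPKM in hyperlipidemic replicates 1 to 4, against 2.84, 642, 273 and 372 FPKM in normal replicates 1 to 4. Like Mt-nd2, Mt-nd4 and Mt-nd6, it was lowest in normal replicate 1, with r of 0.985 to Mt-nd4 over the 8 libraries. Its log2 change was 2.33 on the FPKM scale (limma adjusted p = 0.458) and 2.79 as a share (adjusted p = 0.161). A further 16 rows of this genome span 64 to 72 bp each and have symbols that begin with AY172581 rather than a gene name. Of these rows, 14 averaged under 10 FPKM, 12 were listed at 0 in normal replicate 1 and likewise 12 in normal replicate 4. In at least 1 hyperlipidemic library, 10 of the rows were listed at 0. One of these rows, AY172581.12 (6937 to 7004), named after its values were seen, passed as a share, where 1.96% of all loci did. Its log2 change was 2.94 as a share (limma adjusted p = 0.0303) and 2.29 on the FPKM scale, where it did not pass (adjusted p = 0.0635). It measured 8.09 ± 2.98 FPKM in hyperlipidemic and 1.17 ± 1.61 FPKM in normal libraries, and was listed at 0 in normal replicates 1 and 4. The most abundant of them, AY172581.5 (9383 to 9450), measured 1849, 8343, 4295 and 4173 FPKM in hyperlipidemic replicates 1 to 4, against 1213, 3351, 3057 and 1488 FPKM in normal replicates 1 to 4. Its locus identifier is MSTRG.133768, and the lncRNA table lists a transcript MSTRG.133768.4 from 1094 to 6933 of the same genome, so that the locus is wider than its listed span and covers the listed span of Mt-nd2. That transcript measured 13.8 ± 1.69 FPKM in hyperlipidemic and 12.6 ± 7.58 FPKM in normal libraries, with overlap. How reads were divided between this locus and the protein genes was not tested.

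Nuclear genes of the same pathway were read from 10 lists, chosen with earlier results of these data known, that had 192 genes with a row. As shares 1 of 190 tested genes passed, where 1.96% of all loci did. On the FPKM scale 0 of 189 passed, where 1.39% of all loci did. At an unadjusted p under 0.05, limma counted 58 of the 190 as shares, beside 26.5% of all loci. On the FPKM scale it counted 17 of the 189, beside 13.0% of all loci. The median log2 change of the list genes was 0.61 as shares, beside 0.53 for all loci, and 0.23 on the FPKM scale, beside 0.18. The gene that rose was Ndufb9, an accessory subunit of complex I, at 102, 108, 119.9 and 89.3 ppm in hyperlipidemic replicates 1 to 4, against 51.8, 51.1, 46.3 and 48.4 ppm in normal replicates 1 to 4. The groups were far apart and the normal values close together (log2 change 1.06 ± 0.22, limma adjusted p = 0.0375). On the FPKM scale its log2 change was 0.65 (limma adjusted p = 0.260), and as a share it no longer passed without any 1 hyperlipidemic library or without normal replicate 2 or 4, nor with a pseudocount of 10, no trend, a replicate block or loci over 1000 bp as denominator. Without normal replicate 1, 22 of the 190 genes passed, where 6.41% of all loci did.

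Among the nuclear subunits of the complexes, 68 of 75 tested genes had a log2 change above 0 as shares, beside 81.2% of all loci, and 53 of 75 on the FPKM scale, beside 65.0%. Complex I subunits had a median log2 change of 0.64 as shares (34 tested, 33 above 0), with Ndufs1, which holds iron-sulfur clusters of the electron path, at 35.6 ± 7.62 ppm in hyperlipidemic and 15.0 ± 3.44 ppm in normal libraries (limma adjusted p = 0.0585). The accessory subunit Ndufb6 was at 16.6 ± 4.05 ppm in hyperlipidemic and 6.32 ± 1.796 ppm in normal libraries (adjusted p = 0.0644). Complex II, which has no mitochondrially encoded subunit, had a median of 0.45 (4 tested). Its membrane anchor Sdhd was at 66.5 ± 8.25 ppm in hyperlipidemic and 45.7 ± 16.1 ppm in normal libraries, its flavoprotein Sdha at 40.3 ± 5.09 ppm in hyperlipidemic and 27.5 ± 10.97 ppm in normal libraries, and its iron-sulfur subunit Sdhb at 43.1 ± 3.55 ppm in hyperlipidemic and 34.8 ± 5.91 ppm in normal libraries. Complex III and cytochrome c had a median of 0.53 (10 tested, 6 above 0), with cytochrome c1, Cyc1, at 30.5 ± 7.11 ppm in hyperlipidemic and 15.9 ± 1.14 ppm in normal libraries. Uqcrb, a small subunit of complex III, was at 60.1 ± 20.7 ppm in hyperlipidemic and 30.9 ± 7.95 ppm in normal libraries, and Uqcrfs1, its Rieske iron-sulfur protein, at 56.1 ± 9.24 ppm in hyperlipidemic and 30.5 ± 11.4 ppm in normal libraries. For complex IV the median was 0.68 (11 tested), with Cox6b1 at 163 ± 18.0 ppm in hyperlipidemic and 88.3 ± 24.5 ppm in normal libraries. Cox6c, another subunit of complex IV, was at 262 ± 54.4 ppm in hyperlipidemic and 144 ± 19.6 ppm in normal libraries, and Cox5b at 143 ± 14.9 ppm in hyperlipidemic and 84.5 ± 13.3 ppm in normal libraries. Complex V had a median of 0.54 (16 tested), with the coupling subunit gene Atp5j at 51.0 ± 8.65 ppm in hyperlipidemic and 24.4 ± 6.13 ppm in normal libraries (limma adjusted p = 0.0667). Atpif1, the inhibitor of the enzyme's ATPase activity, was at 183 ± 22.1 ppm in hyperlipidemic and 93.1 ± 29.1 ppm in normal libraries, and the stalk subunit gene Atp5h at 82.5 ± 3.62 ppm in hyperlipidemic and 45.6 ± 10.7 ppm in normal libraries. The named subunits of complexes II, III, IV and V were at adjusted p values between 0.0667 and 0.402 as shares. On the FPKM scale the median log2 changes were 0.23, 0.04, 0.13, 0.26 and 0.13 for complexes I to V, beside 0.18 for all loci. Of the named subunits Sdhb alone was below 0 there, at -0.09. The summed FPKM of complex III and cytochrome c averaged lower in hyperlipidemic libraries, at 341 ± 40.1 against 395 ± 93.1 in normal ones, with overlap. Those of the other complexes averaged higher.

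The ratio of the 6 mitochondrial genes to the 75 nuclear subunits does not depend on the library total. Summed FPKM of the 6 genes over summed FPKM of the nuclear subunits was 2.26, 2.24, 2.50 and 2.18 in hyperlipidemic replicates 1 to 4, against 1.297, 2.07, 1.67 and 1.54 in normal replicates 1 to 4. The groups did not overlap, with normal replicate 2 close below the hyperlipidemic range. Without Mt-cyb the ratio averaged 1.78 ± 0.129 in hyperlipidemic and 1.28 ± 0.353 in normal libraries, still without overlap, whereas Mt-co2 alone over the same sum averaged 0.953 ± 0.0789 in hyperlipidemic and 0.754 ± 0.165 in normal libraries, with overlap. As scores over the genes these ratios carry no test.

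**Figure D5:**
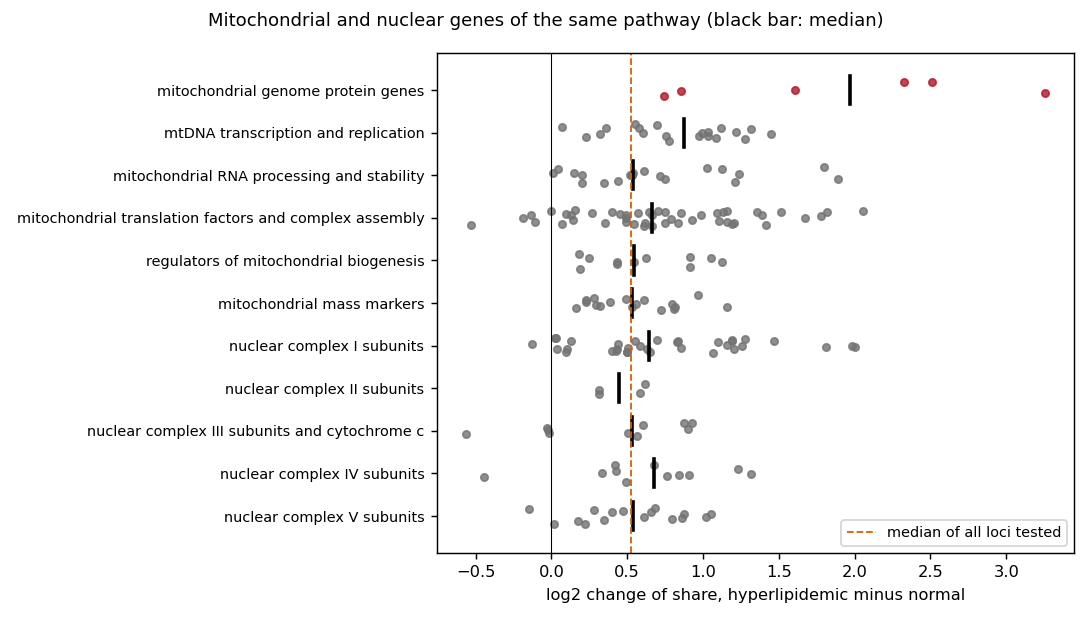
Log2 change of the share (x axis, hyperlipidemic minus normal) of the 6 mitochondrial genes (red, top row) and of the tested members of 10 lists of nuclear genes (grey, 1 point per gene, spread vertically for legibility), with the median of each row as a black bar. The medians of the nuclear rows run from 0.45 to 0.87 around and above the median of all loci (dashed, 0.53), and the mitochondrial genes run from 0.74 to 3.26 with a median of 1.97. With normal replicates 1 and 4 both left out (not drawn), the mitochondrial genes lay between 0.83 and 1.11, beside a median of 0.45 for all loci.

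Factors that copy and transcribe the mitochondrial genome had the highest median of the nuclear lists, at 0.87 as shares and 0.45 on the FPKM scale, with 0 of 20 called on either scale. Log2 changes were above 0 for all 20 as shares and for 16 on the FPKM scale. They were small for Polrmt, at 0.07 as a share and -0.17 as FPKM, and for Tfam, at 0.32 as a share and -0.06 as FPKM. The genes that follow were picked for the smallest p. Peo1, the helicase of mitochondrial DNA replication, was at 3.02, 3.09, 4.04 and 3.75 ppm in hyperlipidemic replicates 1 to 4, against 0, 1.43, 0.309 and 1.22 ppm in normal replicates 1 to 4 (log2 change 1.45, limma adjusted p = 0.0825). Tefm, which lets the mitochondrial RNA polymerase elongate, was at 1.63, 1.84, 2.82 and 1.83 ppm in hyperlipidemic replicates 1 to 4, against 0, 1.13, 0.693 and 0 ppm in normal replicates 1 to 4 (adjusted p = 0.127). The listed zeros of the genes named from these lists, as of Mt-cyb, may be failed estimates. Those zeros all fell in normal replicates 1 and 4, but the choice of these genes by p favours zeros in 1 group. Other list members, such as Mtfmt and Bcs1l among the assembly and translation factors, were listed at 0 in the hyperlipidemic group as well. Polg2, the accessory subunit of the mitochondrial DNA polymerase, was at 5.28 ± 3.58 ppm in hyperlipidemic and 1.53 ± 0.991 ppm in normal libraries (adjusted p = 0.131).

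Enzymes that process and stabilize mitochondrial RNA had a median of 0.53 as shares, the same as all loci, with 0 of 20 called. Trmt10c, a subunit of the enzyme that cuts the 5′ ends of mitochondrial tRNAs, was at 12.4 ± 2.99 ppm in hyperlipidemic and 3.60 ± 3.07 ppm in normal libraries (log2 change 1.799, limma adjusted p = 0.0813). Trub2, a pseudouridine synthase of mitochondrial RNA, was at 12.3, 12.8, 16.3 and 11.6 ppm in hyperlipidemic replicates 1 to 4, against 0, 7.47, 4.05 and 3.99 ppm in normal replicates 1 to 4 (adjusted p = 0.0909). Pde12, which removes poly(A) tails in mitochondria, was at 6.31 ± 2.66 ppm in hyperlipidemic and 2.19 ± 1.18 ppm in normal libraries (adjusted p = 0.115).

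Translation factors and assembly factors had a median of 0.66 as shares, with 0 of 47 called. The complex III assembly factor Ttc19 was at 4.03, 3.68, 8.09 and 7.06 ppm in hyperlipidemic replicates 1 to 4, against 0, 1.94, 3.27 and 0 ppm in normal replicates 1 to 4 (limma adjusted p = 0.0912). The complex IV assembly factor Surf1 was at 9.44, 7.76, 12.9 and 7.64 ppm in hyperlipidemic replicates 1 to 4, against 0, 4.56, 5.63 and 0 ppm in normal replicates 1 to 4 (adjusted p = 0.0940). Taco1, which activates translation of Mt-co1, was at 2.53, 2.46, 5.63 and 3.67 ppm in hyperlipidemic replicates 1 to 4, against 0.424, 1.77, 1.23 and 0 ppm in normal replicates 1 to 4 (adjusted p = 0.103).

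Regulators of mitochondrial biogenesis (0 of 11 called, median 0.55) and markers of mitochondrial mass (0 of 17 called, median 0.53) had medians close to that of all loci. The transcription factor Yy1 was at 16.3 ± 2.51 ppm in hyperlipidemic and 8.304 ± 2.09 ppm in normal libraries, and Gabpa, a subunit of a factor that drives many respiratory genes, at 16.4 ± 5.54 ppm in hyperlipidemic and 7.98 ± 1.32 ppm in normal libraries. The deacetylase Sirt1 was at 11.7 ± 2.095 ppm in hyperlipidemic and 5.496 ± 2.68 ppm in normal libraries. The matrix chaperone Hspd1 was at 60.4 ± 10.3 ppm in hyperlipidemic and 26.9 ± 7.92 ppm in normal libraries (log2 change 1.16, limma adjusted p = 0.0582), and the outer membrane channel Vdac1 at 51.5 ± 4.70 ppm in hyperlipidemic and 26.6 ± 7.01 ppm in normal libraries (adjusted p = 0.0818). Its relative Vdac2 was at 72.6 ± 7.63 ppm in hyperlipidemic and 41.3 ± 7.61 ppm in normal libraries (adjusted p = 0.0893).

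Genes with the pattern most like that of the summed share of the 6 genes were ranked by Pearson's r of log2 shares over the 8 libraries, among 5499 named loci of at least 5 FPKM that were above 0 in every library. The 10 highest were Rpl17 (r = 0.987), Cox5b (0.985), Pa2g4 (0.985), Trip11 (0.983), Sf1 (0.982), Vdac2 (0.982), Gclc (0.981), Fhdc1 (0.981), Eef1d (0.979) and Acly (0.979). With group means removed their r lay between 0.871 (Acly) and 0.932 (Rpl17). All points share the library total as denominator, and r was above 0 for 94.7% of the 5499 loci with a median of 0.690, so a high r is common on this scale.

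The tissue label was checked against markers of bone: all 11 osteoblast and bone matrix markers with a row were tested, and their summed level was 1342 to 2295 FPKM in hyperlipidemic and 2745 to 4438 FPKM in normal libraries. Of these, 1 passed as lower on the FPKM scale, where 1.39% of all loci were called, and 0 as shares, where 1.96% were. As shares their sums overlapped, at 2297 to 4099 ppm in hyperlipidemic and 3201 to 8689.6 ppm in normal libraries. Markers of other cells are given as the range of their summed level over all members with a row. The summed level of 10 skeletal muscle markers was 1.85 to 67.1 FPKM in hyperlipidemic and 0.193 to 21.8 FPKM in normal libraries (0 called of 6 tested on the FPKM scale and 9 as shares, Mylpf and Mb listed at 0 in all normal libraries), and that of 8 adipocyte markers was 107 to 401 FPKM in hyperlipidemic and 48.2 to 117 FPKM in normal libraries (of 7 tested, 2 called as higher as shares and 1 on the FPKM scale, Lep listed at 0 in all normal libraries). The adipocyte sums overlapped as FPKM and were apart as shares, at 215 to 685 ppm in hyperlipidemic and 90.9 to 129 ppm in normal libraries. Ucp1, the marker of brown fat, was not analysed here. Of marrow cells, 10 erythroid markers summed to 19286 to 34523 FPKM in hyperlipidemic and 17958 to 35312 FPKM in normal libraries, with 1 called as higher as a share. For 8 megakaryocyte markers, 1 of them called as higher as a share, the sums were 172 to 364 FPKM in hyperlipidemic and 45.9 to 193 FPKM in normal libraries, with overlap, and as shares 307 to 733 ppm in hyperlipidemic and 89.9 to 225 ppm in normal libraries, without overlap. Neutrophil markers (7, 0 called) summed to 9160.4 to 11939.6 FPKM in hyperlipidemic and 9193 to 11537 FPKM in normal libraries. B cell markers (8, 0 called) summed to 40.8 to 90.2 FPKM in hyperlipidemic and 107 to 128 FPKM in normal libraries. Osteoclast markers (7, of which 6 were tested and 1 called as lower on the FPKM scale) summed to 148 to 305 FPKM in hyperlipidemic and 330.1 to 597 FPKM in normal libraries. As shares the sums of the muscle, erythroid, neutrophil, B cell and osteoclast markers overlapped between groups. The part of these cells in the mitochondrial values was not tested.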

How the data were processed

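Total RNA (3 ug) was depleted of ribosomal RNA and sequenced as strand-specific libraries with 150 bp paired reads, per the labels' protocols. The authors deposited FPKM values for genes, lncRNAs and circRNAs. StringTie 1.3.3b, HISAT2 2.1.0, bcl2fastq 1.8.4 and build Rnor_6.0 are listed in the submitters' processing notes, while annotation, filters and strand setting remain not given in the sources used here. Deposited tables also hold the authors' fold change, its log2 value, a p-value and a q-value, whose formula and test are not stated.

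Loci with a mean of at least 0.5 were tested with limma 3.58.1 in R 4.3.3 on log2(value + 1), with an empirical Bayes trend, as FPKM and as share of the summed gene FPKM multiplied by 1000000 (ppm). Log2 changes are on that scale, which understates changes of low genes. A list member with several loci was taken at its most abundant locus. Genes, lists and tests were chosen with earlier results of these data known. Named were all 6 genes, Mt-nd3, the 3 genes of each list with the smallest p as shares, and the 10 genes most like the summed share. Polrmt, Tfam, Mtfmt and Bcs1l were named after their values were seen, as list members that this choice left out. The fit was also run on simulated log2 values with known changes and independent normal noise. That simulation held no library that stands apart, no listed zeros and no shifted totals, so it does not check the fit for those. The circRNA table held 0 rows with a mitochondrial host. Depth is unknown, since counts were not used here. Alternatives were other pseudocounts and filters, each library left out, a replicate block, no trend, array weights, zeros as missing, other scalings and other denominators.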

Additional observations from a re-analysis of the deposited data

How the results depend on the processing

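The log2 changes of the 6 genes and Mt-nd3 stayed above 0 under all 19 alternatives on each scale. So did the median of all loci, at 0.04 to 0.28 on the FPKM scale and 0.11 to 0.69 as shares. On the FPKM scale 0 of the 6 passed in any of these alternatives. As shares, the number that passed ran from 0 to 4 on leaving out each library (4 without normal replicate 1) and was 5 with array quality weights, under which 31.6% of all loci were called as higher. Adjusted p as shares reached 0.00564 for Mt-nd5 with those weights. The number of loci called on the FPKM scale was 111 with a pseudocount of 10, 107 with no filter and 109 to 215 on leaving out each library. As shares it was 152 with a pseudocount of 10, 130 with no filter, 175 with no trend, 4980 with array quality weights, 638 without the 10 most abundant other loci and 85 to 931 on leaving out each library. The split into higher and lower calls as shares, 143 and 142, was 19 and 210 with loci over 1000 bp as denominator and 453 and 185 without the 10 most abundant other loci. The ratio of summed shares was 1.32 with loci over 1000 bp as denominator and 1.84 to 2.11 on leaving out each library. The difference in the Mt-nd6 ratio was 0.15 to 2.15 on leaving out each library and -0.14 with normal replicates 1 and 4 left out, the one result whose sign turned. The causes were not tested.

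Whether replicate numbers pair the samples is not known. Deviations from group means correlated weakly between same-numbered libraries, at 0.026, 0.13, 0.053 and 0.011. Yet 3 of the 4 hyperlipidemic libraries correlated best with their own number, so these values cannot settle it. With the replicate number as a block, 151 loci were called on the FPKM scale and 217 as shares, with 0 of the 6 genes on either, and the Mt-nd6 difference had an exact paired p of 0.5. Unknown depth leaves the counting error of low values, such as Mt-nd6 in normal replicate 1, unstated.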
